A study of Mus musculus with 10 samples.

Results

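The Gimap genes encode GTPases of immunity-associated proteins, a family of guanine nucleotide-binding proteins that is abundant in lymphocytes. All 8 family members named for this comparison (Gimap1, Gimap3, Gimap4, Gimap5, Gimap6, Gimap7, Gimap8 and Gimap9) were found by symbol among the 27179 genes counted, and all 8 passed the filter on low counts. They were selected by name and not by their values. Levels were measured by RNA-sequencing of effector memory (EM) γδ T cells, sorted from spleens as CD3+ γδTCR+ CD44+ cells in the study's effector memory gate. The 10 libraries came from 5 naïve and 5 pre-exposed female C57BL/6 mice, 1 mouse each, and no transgene or deletion was used. Pre-exposed mice had received 50000 red blood cells infected with *Plasmodium chabaudi* intravenously at an age of 6 to 8 weeks. The same age of 6 to 8 weeks is recorded for the naïve mice. By the study's methods, both groups received chloroquine and pyrimethamine, each at 10 mg/kg, on day 14 or the equivalent time. Both drugs were then given in the drinking water for 5 days. Spleens were removed 12 weeks after the drugs ended, so the model describes cells long after a drug-cured infection. The sample labels name drug treatment for the spleens of pre-exposed mice and not for those of naïve mice. P-values measure the spread between these mice.

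Gimap proteins share a G domain that binds GTP and GDP, and several are anchored by their tail to internal membranes. Loss of Gimap5 is known to cause loss of T cells in rats and mice, and Gimap1 is needed for the survival of mature T and B cells. Gimap3 is the closest mouse paralog of Gimap5, Gimap4 has been tied to T cell death, and Gimap6 takes part in autophagy. The family is therefore read here as a set of genes known for the upkeep of the lymphocyte pool.

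The genes lie within 123666 bases on chromosome 6 (chr6:48647186-48770851 in GRCm38), in the order Gimap8, Gimap9, Gimap4, Gimap6, Gimap7, Gimap1, Gimap5 and Gimap3. Gimap6 and Gimap3 are on the reverse strand and the others on the forward strand. The phosphate-binding loop is a stretch of the G domain. It reads glycine, any 4 residues, glycine, lysine and then serine or threonine. The coding DNA of each loop is printed 5′ to 3′ on the strand of its gene, from GENCODE transcripts in GRCm38, to show how far the members have diverged in the part they all need. The capitals mark the 3 codons of the glycine, lysine and serine that end it.
Gimap8 (first loop, exon 2, chr6:48650256-48650279): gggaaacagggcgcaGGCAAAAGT
Gimap8 (second loop, exon 4, chr6:48656119-48656142): gggaagcgtggtgttGGGAAAAGT
Gimap8 (last loop, exon 5, chr6:48658746-48658769): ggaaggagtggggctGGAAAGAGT
Gimap9 (exon 2, chr6:48677523-48677546): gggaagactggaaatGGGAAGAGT
Gimap4 (exon 3, chr6:48690421-48690444): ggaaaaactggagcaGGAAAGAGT
Gimap6 (exon 3, chr6:48702750-48702773): gggaaaacaggaagcGGGAAAAGT
Gimap7 (exon 2, chr6:48723524-48723547): gggaaaacaggaagtGGAAAGAGC
Gimap1 (exon 3, chr6:48742552-48742575): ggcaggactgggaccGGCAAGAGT
Gimap5 (exon 3, chr6:48752594-48752617): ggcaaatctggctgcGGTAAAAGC
Gimap3 (exon 5, chr6:48765887-48765910): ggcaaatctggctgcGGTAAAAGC

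Gimap8 held 3 such loops and every other member 1. The loops of Gimap5 and Gimap3 were the same in 24 of 24 bases, whereas the other loops shared 12 to 17 of 24 bases with Gimap5. Gimap3 and Gimap5 also shared 83 of their 75-base stretches, 3.32% of those in the Gimap3 transcripts and 1.97% of those in Gimap5. No other pair of members shared a 75-base stretch, so counts could be split between paralogs only for Gimap3 and Gimap5. Gimap1 shared 33.2% of its 75-base stretches with transcripts of other genes, among them the antisense gene Gimap1os and the readthrough gene Gm28053. Gimap5 shared 1.90% and Gimap7 0.310% of their stretches with Gm28053. The sources used here do not give the strand setting of the counting. Counts of Gimap1 and of its antisense partner cannot be told apart.

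The libraries held 6587199 to 19993444 counts in genes in naïve mice (median 14262979) and 8747888 to 22542832 in pre-exposed mice (median 13075118). Gimap genes took 0.438% to 0.833% of the counts in naïve mice and 0.453% to 0.735% in pre-exposed mice. The label descriptions lack an index pair for pre-exposed mice 2 to 4, and this could mark a library batch. The deviation of genes from their mean level followed gene length with Spearman's rho of 0.259 to 0.413 in the naïve libraries and of 0.273, -0.536, -0.422, -0.239 and -0.136 in pre-exposed mice 1 to 5. Pre-exposed mouse 5 was unusual in composition, since its 10 leading genes held 24.7% of all counts (5.61% to 10.2% elsewhere). Mitochondrial genes held 5.86%, 0.992%, 1.91%, 0.846% and 12.8% of the counts of pre-exposed mice 1 to 5, beside 4.33% to 7.25% in the naïve libraries, and the part of this share in the Gimap values was not tested.

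The cells' identity was checked against marker genes. Beside the marker counts below, 5.12% of all genes tested were called higher in pre-exposed mice and 1.17% lower (edgeR, adjusted p under 0.05). The 8 γδ T cell markers (CD3 chains and γδ receptor constant genes) summed to 6998 to 11698 CPM in naïve mice and to 4585 to 15139 in pre-exposed mice (1 of 8, Cd3d, higher), where CPM are counts per 1e6 reads counted, after scaling of library sizes by TMM. Because Gimap genes are also used by other lymphocytes and by endothelium, markers of further cell types were examined. The 9 αβ T cell markers summed to 1958 to 2383 CPM in naïve and 2171 to 3779 in pre-exposed mice, and 1 of 9 tested, Trac, was higher in pre-exposed mice. The median log2 fold change (pre-exposed minus naïve) of the 9 was 0.93. Cd4 was at 8.51 to 38.7 CPM in naïve and 6.90 to 113 in pre-exposed mice (edgeR adjusted p = 0.0513). Cd8a was at 7.80 to 28.3 and 8.54 to 90.4 CPM (edgeR adjusted p = 0.0759). The 8 B cell markers summed to 213 to 583 and 108 to 321 CPM, with 2 of 5 tested higher (Ms4a1 and Cd79a) and Pax5 at 0 in every library. Blk alone was at 102.5 to 418 CPM in naïve and 27.98 to 140.4 in pre-exposed mice (edgeR adjusted p = 0.0545). Counts in immunoglobulin genes, which were not tested, made up 0.0845% to 0.737% of the naïve and 0.345% to 6.68% of the pre-exposed libraries, with 4.50% in mouse 1 and 6.68% in mouse 2. The 7 NK cell markers summed to 1184 to 2234 and 1298 to 4298 CPM, with 2 of 7 higher. The 8 dendritic cell markers summed to 90.9 to 140.2 and 119.9 to 713 CPM, with 5 of 8 higher. Zbtb46, which was not called, was at 0.135 to 3.54 and 0.363 to 15.5 CPM (edgeR adjusted p = 0.0600). The 9 monocyte and macrophage markers summed to 478 to 1125 and 421 to 1834 CPM, with 4 of 5 tested higher (Csf1r, Lyz2, Cd68 and Adgre1). The tested marker not called, Ccr2, alone was at 442 to 988 CPM in naïve and 310 to 615 in pre-exposed mice (edgeR adjusted p = 0.0716). The 9 endothelial markers summed to 20.1 to 51.2 and 7.63 to 42.8 CPM, mostly Pecam1, with Tek at 0 in every library and 0 of 3 tested called. Of the erythroid markers 4 of 5 were higher, at 79.6 to 459 and 325 to 2040 CPM in sum. Alas2, which was not called, was at 1.25 to 3.19 and 4.09 to 11.3 CPM (edgeR adjusted p = 0.0672). Neutrophil markers summed to 0.310 to 22.2 and 1.09 to 232 CPM (1 of 3 tested higher, Ly6g at 0 in the naïve libraries), and those of platelets and megakaryocytes to 0.147 to 2.84 and 1.64 to 11.0 (0 of 2 tested called). In bulk samples fewer cells of a type and less RNA per cell cannot be told apart, and the part of admixed cells in the Gimap values was not tested.

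**Figure D1:**
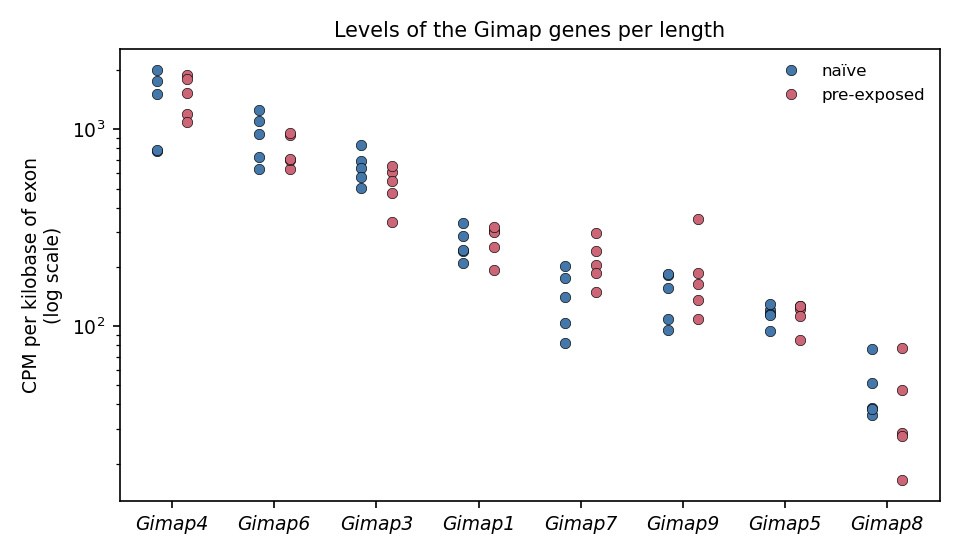
Level of each Gimap gene per length of its exons in each of the 10 libraries (CPM per kilobase, log axis), with blue points for naïve and red points for pre-exposed mice. Gimap4 was the highest and Gimap8 the lowest, and the colours overlap in every gene.

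Per length, the family spanned a wide range in these cells. Gimap4 was the most abundant member, with 1365 ± 563 CPM per kilobase of exon and 1504 ± 355 in the naïve and pre-exposed groups (SD over 5 mice), and ranked 36 among the 12655 genes tested. Gimap6 followed with 928 ± 258 and 786 ± 152 (rank 71), and Gimap3 with 647 ± 124 and 524 ± 123 (rank 116). Gimap1 stood at 262 ± 48.3 and 274 ± 51.4 CPM per kilobase (rank 328). Gimap7 had 141 ± 49.4 and 216 ± 56.9 (rank 519), Gimap9 145 ± 41.1 and 189 ± 95.4 (rank 569), and Gimap5 115 ± 13.0 and 114 ± 17.4 (rank 896). Gimap8 was the lowest member, at 47.7 ± 17.0 and 39.5 ± 24.0 CPM per kilobase (rank 2427), and the 8 genes differed in level although they are neighbours on the chromosome. Gimap3 was thus several-fold above its paralog Gimap5 in the naïve mice.

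The order of neighbours in this ranking held in 10 of 10 libraries for Gimap4 over Gimap6, Gimap6 over Gimap3, Gimap3 over Gimap1 and Gimap5 over Gimap8. It held in 9 of 10 for Gimap1 over Gimap7 and for Gimap9 over Gimap5. Gimap7 was above Gimap9 in 6 of 10 libraries, with a mean log2 ratio of 0.10 ± 0.32 (SD, n = 10). With both groups pooled, these neighbours did not differ beyond their spread. Their group means crossed, at 141 for Gimap7 and 145 for Gimap9 in naïve mice and 216 and 189 CPM per kilobase in pre-exposed mice.

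The question of the comparison was whether the family's transcripts differed in EM γδ T cells after the infection had resolved. None of the 8 genes was called at an adjusted p under 0.05 (edgeR quasi-likelihood test, adjusted over 12655 genes), and 1 of 8, Gimap7, had an unadjusted p under 0.05. Over all genes tested, 6.29% were called (5.12% higher and 1.17% lower), and 24.3% had an unadjusted p under 0.05. DESeq2 and voom called none of the 8 either. The fitted log2 fold changes were above 0 for 4 members and below 0 for the other 4. Their median was 0.03, against 0.02 over all genes tested, and they ranged from -0.30 to 0.61. The standard errors were 0.20 to 0.37, and changes within the 95% interval of each member were not excluded by these libraries. Log2 fold changes are pre-exposed minus naïve throughout.

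**Figure D2:**
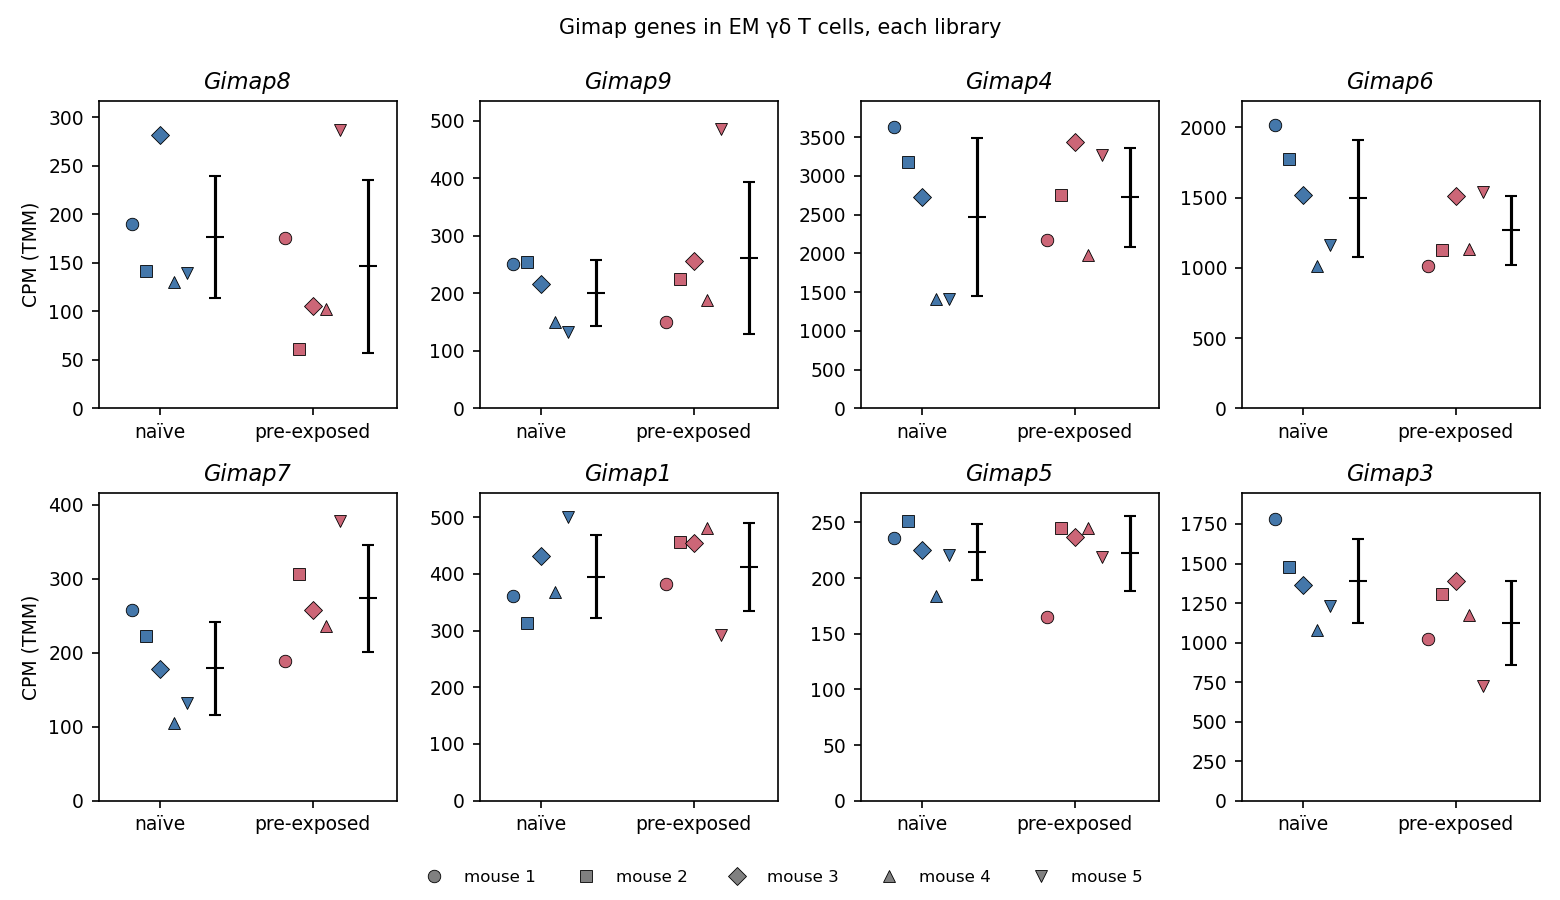
CPM of each Gimap gene in each library, in the order of the genes on the chromosome, with a marker shape per mouse number and black bars for the mean ± SD of 5 mice. The groups overlap in all 8 genes, and naïve mice 4 and 5 lie at the bottom of the naïve range for every gene but Gimap1.

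Gimap7, which can promote GTP hydrolysis by a related Gimap protein, had the largest fitted change of the family. It was read at 257, 223, 178, 105 and 132 CPM in naïve mice 1 to 5. Pre-exposed mice 1 to 5 had 189, 307, 258, 236 and 378 CPM. Pre-exposed mice 2, 3 and 5 were above every naïve mouse, mouse 3 only just, and the groups overlapped. The log2 fold change was 0.61 ± 0.28 (SE), with a 95% interval from 0.02 to 1.20, and the adjusted p was 0.190 (edgeR; unadjusted p = 0.0436; exact permutation test, p = 0.0556). Without pre-exposed mouse 5 it was 0.43 (edgeR adjusted p = 0.248). Removal of the length trend lowered it to 0.19 (edgeR adjusted p = 0.780).

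Gimap9, a single-loop member whose role is little known, showed 251, 255, 217, 149.6 and 133 CPM in naïve mice 1 to 5. In the pre-exposed mice it was at 151, 225, 256, 188 and 486 CPM. Mouse 5 stood far above all other libraries, and the other 4 pre-exposed mice lay within or just above the naïve range. Its log2 fold change of 0.37 ± 0.31 (SE; edgeR adjusted p = 0.491) became -0.01 without pre-exposed mouse 5.

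Gimap8, the member with 3 loops, was at 189.9, 141, 281, 130.4 and 139.6 CPM in naïve mice 1 to 5. Values in pre-exposed mice 1 to 5 were 176, 61.0, 105, 102 and 287 CPM. Pre-exposed mice 2 to 4 were below every naïve mouse, mouse 1 was within the naïve range and mouse 5 was above it. The log2 fold change over all mice was -0.28 ± 0.37 (SE; edgeR adjusted p = 0.686), and -0.69 without pre-exposed mouse 5 (edgeR adjusted p = 0.124). It was -1.05 with pre-exposed mice 2 to 4 alone, where it was called (edgeR adjusted p = 0.0106), and 0.44 with mice 1 and 5 alone (edgeR adjusted p = 0.565). With mice 2 to 4 alone 29.7% of 13157 genes were called, 14.5% lower, and these are the 3 libraries without an index pair in the label and with the most negative length trend. Gimap8 is the longest member at 3700 bases, and with the length trend removed its log2 fold change over all mice was 0.02. Group, label style and length trend cannot be told apart in these 3 libraries.

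**Figure D3:**
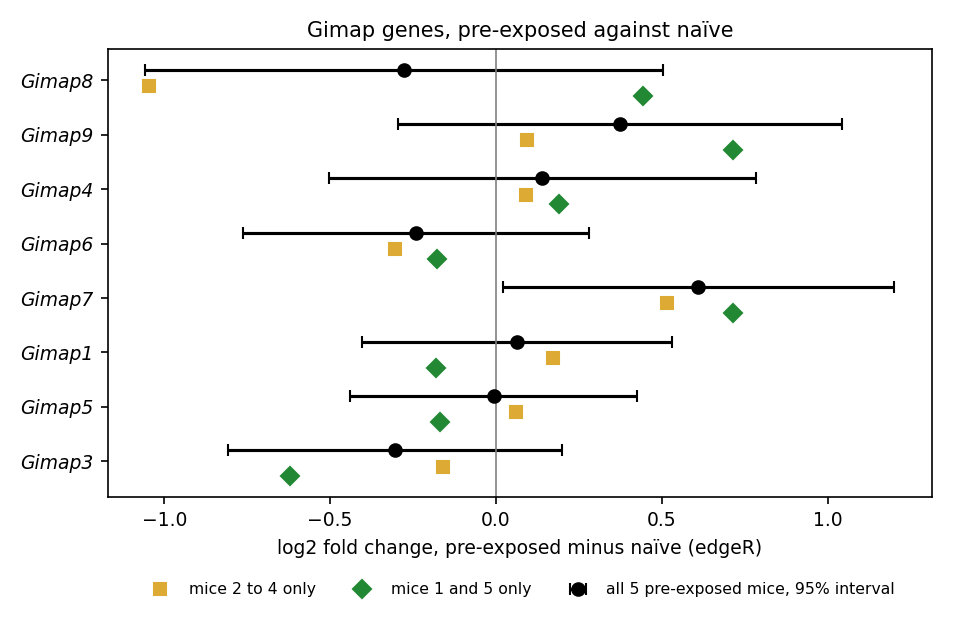
Log2 fold change (pre-exposed minus naïve) of each Gimap gene, with black points and 95% intervals for all 5 pre-exposed mice, yellow squares for pre-exposed mice 2 to 4 and green diamonds for mice 1 and 5, each against the 5 naïve mice. Gimap8 lies at -1.05 with mice 2 to 4 and at 0.44 with mice 1 and 5, and Gimap7 is above 0 in all 3.

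The most abundant members were spread widely among naïve mice. Gimap4, tied to T cell death, was at 3631, 3179, 2725, 1409 and 1414 CPM in naïve mice 1 to 5. It was at 2176, 2752, 3434, 1979.6 and 3267 CPM in pre-exposed mice 1 to 5, all of which lay within the naïve range. The naïve range of Gimap4 was 2.58-fold, and the log2 fold change was 0.14 ± 0.30 (SE; edgeR adjusted p = 0.816).

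Gimap6, the member with a role in autophagy, gave 2013, 1777, 1517, 1014 and 1160.3 CPM in naïve mice 1 to 5. Pre-exposed mice 1 to 5 gave 1011, 1129, 1515, 1137 and 1543 CPM, so that mouse 1 was just below the naïve range and the other 4 were inside it. Its log2 fold change was -0.24 ± 0.24 (SE; edgeR adjusted p = 0.582).

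Gimap3 had 1781, 1477, 1363, 1082 and 1230.4 CPM in naïve mice 1 to 5. The pre-exposed mice had 1022, 1308, 1391, 1174 and 722 CPM, and mice 1 and 5 were below every naïve mouse. Its log2 fold change was -0.30 ± 0.24 (SE; edgeR adjusted p = 0.453).

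Gimap5 and Gimap1, the members best known for lymphocyte survival, had the fitted changes nearest to 0. Gimap5 was at 236, 251.5, 225, 184 and 221 CPM in naïve mice 1 to 5, and at 165, 245, 237, 245 and 219 CPM in pre-exposed mice 1 to 5. Apart from pre-exposed mouse 1, which was the lowest library, the groups covered the same range. The log2 fold change of Gimap5 was -0.01 ± 0.20 (SE; edgeR adjusted p = 0.989), and its 95% interval allowed folds from 0.737 to 1.34. Gimap1 was at 362, 313, 432, 367 and 501 CPM in naïve mice 1 to 5. It was at 381, 455, 454, 481 and 291 CPM in pre-exposed mice, of which mouse 5 was the lowest of all libraries. Its log2 fold change was 0.06 ± 0.22 (SE; edgeR adjusted p = 0.887), with an interval of folds from 0.756 to 1.45, and its sign turned with the length trend removed (-0.26).

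Members did not vary as 1 block across the mice. Over the 10 libraries, log2 CPM of Gimap4 correlated with that of Gimap7 (Pearson r = 0.81), Gimap9 (0.80) and Gimap6 (0.80), and that of Gimap7 with Gimap9 (0.83). Gimap1 ran against Gimap9 (-0.60), Gimap8 (-0.53), Gimap6 (-0.44) and Gimap4 (-0.41). These coefficients are descriptions over libraries that share depth and scaling. Naïve mice 4 and 5 had the lowest values among naïve mice for every member but Gimap1. They were also the shallowest naïve libraries (8582578 and 6587199 counts), and the part of depth was not tested. The summed CPM of the family was 8721, 7617, 6938, 4440.0 and 4931 in naïve mice 1 to 5 and 5270.3, 6482, 7650.1, 5543 and 7195 in pre-exposed mice 1 to 5. All 5 pre-exposed sums lay inside the naïve range.

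Within the family, the proportions of Gimap6 and Gimap7 did not overlap between the groups. The share of a member is its CPM per kilobase divided by the sum over the 8 genes, which removes differences in the level of the whole family. The 8 shares of a library sum to a fixed whole. A lower share of 1 member therefore forces higher shares elsewhere, and the comparisons are not independent. Gimap6 made up 25.6%, 25.7%, 24.4%, 25.4% and 26.1% of the family in naïve mice 1 to 5. It made up 21.3%, 19.0%, 21.7%, 22.4% and 23.2% in pre-exposed mice 1 to 5. Each of the 5 pre-exposed mice was thus below each naïve mouse, and the naïve values kept within a narrow band. The mean share fell from 25.4% ± 0.636 to 21.5% ± 1.57 (SD over 5 mice). The two-sided exact permutation test gave p = 0.00794, the smallest value that 5 against 5 allows.

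Gimap7 made up 4.15%, 4.10%, 3.63%, 3.33% and 3.78% in naïve mice 1 to 5, and 5.06%, 6.57%, 4.70%, 5.91% and 7.22% in pre-exposed mice 1 to 5. Each of the 5 pre-exposed mice was above each naïve mouse. Its mean share rose from 3.80% ± 0.340 to 5.89% ± 1.04 (SD over 5 mice; p = 0.00794 by the exact permutation test). The same comparison was made for all 8 members after the levels had been seen, without adjustment for the 8 tests. The other 6 shares overlapped, with exact permutation p-values of 0.944 for Gimap1, 0.119 for Gimap3, 0.190 for Gimap4, 0.770 for Gimap5, 0.484 for Gimap8 and 0.206 for Gimap9. Gimap4 had the largest difference in mean share, at 4.71 percentage points, beside -3.92 for Gimap6 and 2.09 for Gimap7. Of all 12655 genes tested, 2.89% had a ratio to the summed Gimap level that did not overlap between the groups. The members are part of that sum and other genes are not, so this percentage is no chance rate for the members.

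Both proportions were also examined in the libraries that stand apart. With pre-exposed mice 1 and 5 alone, whose label descriptions match those of the naïve mice, the mean shares were 22.2% for Gimap6 and 6.14% for Gimap7. With mice 2 to 4 alone they were 21.1% and 5.72%. Each pre-exposed mouse lay outside the naïve range for both shares, so the direction in either subset was fixed in advance and is no further support. Removal of the length trend left the Gimap6 groups apart, at 26.0% ± 0.789 and 21.2% ± 1.67 (exact permutation test, p = 0.00794). For Gimap7 it gave 4.08% ± 0.379 and 5.46% ± 0.605 with groups that then overlapped, because pre-exposed mouse 3 (4.47%) fell within the naïve range (exact permutation test, p = 0.0159). Gimap7 is the shortest member, at 1269 bases.

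**Figure D4:**
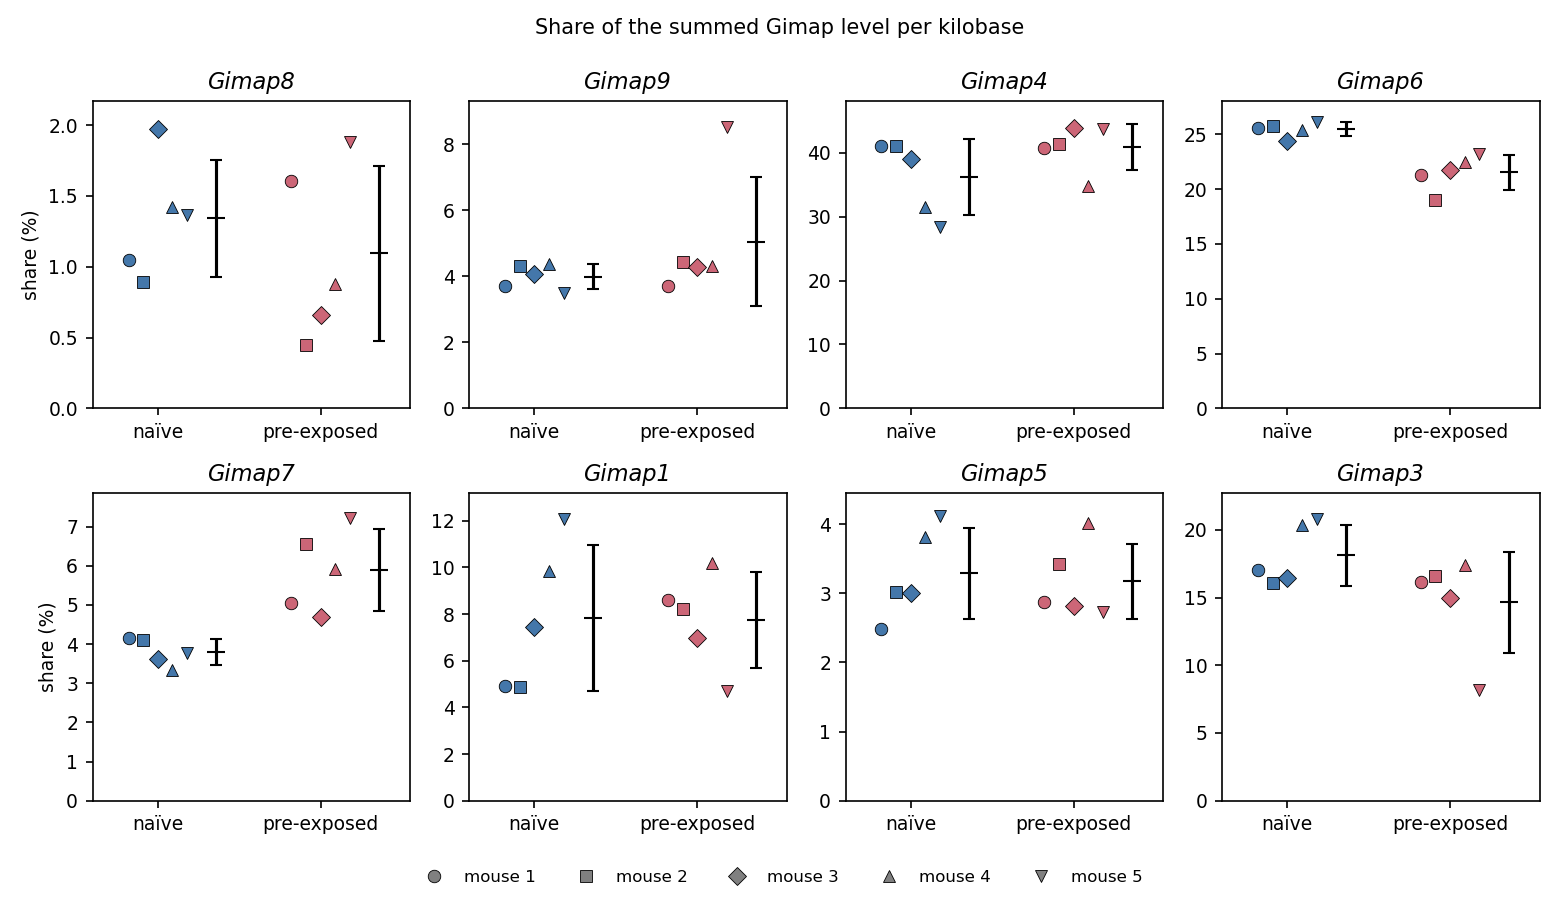
Share of each Gimap gene in the family's summed level per kilobase, in percent, for each library, with a marker shape per mouse number and black bars for the mean ± SD of 5 mice. The groups are separate for Gimap6 (24.4% to 26.1% against 19.0% to 23.2%) and Gimap7 (3.33% to 4.15% against 4.70% to 7.22%) and overlap for the other 6.

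The stretch around the start of the Gimap6 and Gimap7 genes is printed because these were the members whose proportions did not overlap between the groups. Both are 300-base RefSeq windows in GRCm38.p6 that end just inside the transcript, 5′ to 3′ on the strand of the gene, which is reverse for Gimap6 and forward for Gimap7. The capitals mark matches, on either strand, to short motifs of the ETS (GGAAGT), RUNX (TGTGGT) and Ikaros (TGGGAA) families, the GC box (CCCGCC) and the TATA box (TATAAA).
Gimap6 (chr6:48708195-48708494): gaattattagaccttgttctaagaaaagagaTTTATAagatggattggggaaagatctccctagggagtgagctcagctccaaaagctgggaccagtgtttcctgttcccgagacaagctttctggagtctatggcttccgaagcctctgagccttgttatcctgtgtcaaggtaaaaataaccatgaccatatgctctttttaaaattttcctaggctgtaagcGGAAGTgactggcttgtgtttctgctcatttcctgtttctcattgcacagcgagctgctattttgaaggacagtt
Gimap7 (chr6:48718371-48718670): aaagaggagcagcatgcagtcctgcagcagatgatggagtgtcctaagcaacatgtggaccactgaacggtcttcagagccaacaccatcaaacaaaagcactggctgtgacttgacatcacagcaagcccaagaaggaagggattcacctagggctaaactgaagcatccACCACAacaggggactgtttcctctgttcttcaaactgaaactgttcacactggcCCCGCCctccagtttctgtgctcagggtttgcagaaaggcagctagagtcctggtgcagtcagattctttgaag

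Gimap6 held an ETS and a TATA match, and Gimap7 a RUNX and a GC box match, with no motif in common. Over the family, the ETS motif was found at 4 of 8 genes (Gimap1, Gimap5, Gimap6 and Gimap9) and in 23.8% of the 32851 RefSeq promoters of this length. The RUNX motif was found at Gimap1, Gimap4 and Gimap7 and in 16.8% of all promoters. The Ikaros motif was found at Gimap3 alone of the family (25.6% of all promoters), the GC box at Gimap7 and Gimap9 (35.3%) and the TATA box at Gimap6 alone (13.6%). A match describes letters and not a bound site.

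Genes beside the cluster were examined to see whether the region as a whole differed. Of 23 counted genes within 500000 bases of the outer members, 15 were tested and 1 was called, beside 6.29% of all genes tested. This was Malsu1, which encodes a factor of mitochondrial ribosome assembly. It rose from 16.2 to 27.9 CPM in naïve mice to 25.2 to 106 CPM in pre-exposed mice (log2 fold change 1.21 ± 0.33 SE; edgeR adjusted p = 0.0438), and the change was 0.84 without pre-exposed mouse 5 (edgeR adjusted p = 0.0372). Malsu1 is short, at 785 bases, and its change with the length trend removed is not given here. Tmem176a and Tmem176b, the nearest tested neighbours beyond Gimap3, had log2 fold changes of -0.14 each (edgeR adjusted p = 0.818 and 0.814). AI854703, the nearest beyond Gimap8, had -0.11. The remaining 11 tested neighbours, Krba1, Zfp467, Sspo, Zfp862-ps, Lrrc61, Rarres2, Repin1, Zfp775, Gpnmb, Igf2bp3 and Tra2a, ranged from -0.49 to 0.60.

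**Figure D5:**
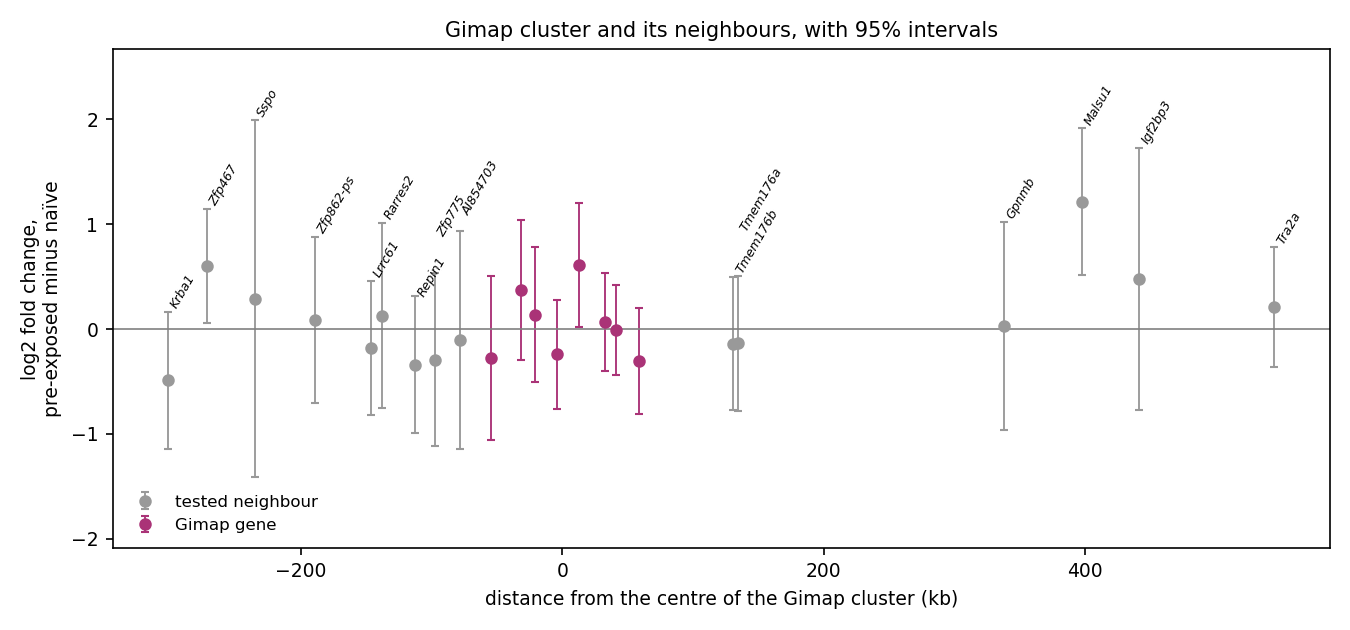
Log2 fold change (pre-exposed minus naïve, with 95% intervals) of the 8 Gimap genes (purple) and of the 15 tested neighbours (grey) against the distance of each gene's middle from the centre of the cluster in kilobases. Malsu1, at 1.21, was the only neighbour called.

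Lists of related genes were read beside the family. Of 15 genes of the Atg8 family and core autophagy, the process Gimap6 takes part in, 0 were called in either direction (edgeR). Over all genes tested 6.29% were called, so 0 of 15 lies near that share. The median log2 fold change of the list was 0.05, against 0.02 over all genes tested. The smallest p-values belonged to Atg13, a subunit of the kinase complex that starts autophagy, to Gabarap, an Atg8 protein, and to the cargo receptor Sqstm1. Atg13 was at 46.4 to 63.0 CPM in naïve and 20.5 to 42.7 in pre-exposed mice without overlap (log2 fold change -0.71 ± 0.24 SE; edgeR adjusted p = 0.0906), where 4.93% of all genes tested did not overlap. Gabarap was at 179 to 278 and 191 to 676 CPM (0.91 ± 0.32; edgeR adjusted p = 0.0946), and Sqstm1 at 177 to 221 and 112 to 198 CPM (-0.36 ± 0.21; edgeR adjusted p = 0.304).

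Of 19 genes of IL-7 receptor signalling and the Bcl2 family, which set the survival of resting lymphocytes, 2 were higher and 0 lower, with a median of 0.10, against 5.12% of all genes tested called higher. These were Bcl2a1b and Bcl2a1d, near-identical copies that encode anti-apoptotic proteins and whose counts are therefore uncertain. Bcl2a1b rose from 104 to 187 CPM in naïve mice to 162 to 943 in pre-exposed mice (log2 fold change 1.58 ± 0.38 SE; edgeR adjusted p = 0.0305). Bcl2a1d rose from 78.0 to 144 to 116 to 824 CPM (1.60 ± 0.42 SE; edgeR adjusted p = 0.0400). Without pre-exposed mouse 5 the log2 fold changes were 1.07 for Bcl2a1b and 0.96 for Bcl2a1d (edgeR adjusted p = 0.0200 and 0.0327). Both genes are short, at 764 and 796 bases, and their changes with the length trend removed are not given here. The pro-apoptotic Pmaip1 was at 7.81 to 34.5 and 4.91 to 159 CPM (1.71 ± 0.63; edgeR adjusted p = 0.112).

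Among 9 surface genes of resting and recirculating lymphocytes, 1 was higher and 1 lower (median 0.16), where 5.12% of all genes tested were higher, 1.17% were lower and 4.93% did not overlap. Ly6c1, a surface protein of memory T cells, rose from 15.5 to 39.7 to 56.3 to 108 CPM without overlap (log2 fold change 1.62 ± 0.29 SE; edgeR adjusted p = 0.0117). S1pr1, the receptor that lets lymphocytes leave lymphoid organs, fell from 310.0 to 585 to 118 to 291 CPM, also without overlap (-1.07 ± 0.26 SE; edgeR adjusted p = 0.0307). Dapl1 was at 1.10 to 3.19 and 2.38 to 14.9 CPM (edgeR adjusted p = 0.105).

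None of 16 transcription factors of resting lymphocytes was called (edgeR, median -0.08), beside 6.29% of all genes tested. Of the 16, 2 (Tcf7 and Fli1) did not overlap between the groups, beside 4.93% of all genes tested. Tcf7, a factor of long-lived T cells, was at 467 to 591 CPM in naïve and 275 to 423 in pre-exposed mice (log2 fold change -0.65 ± 0.20 SE; edgeR adjusted p = 0.0693). The ETS factor Fli1 was at 141 to 197 and 71.4 to 138 CPM (-0.54 ± 0.23; edgeR adjusted p = 0.152), and Ets1 at 839.9 to 1142 and 469.8 to 888 CPM (-0.43 ± 0.22; edgeR adjusted p = 0.253). Their values stand beside Gimap genes that did not pass the test.

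GTPases of other families gave no call, where 6.29% of all genes tested were called. In lists of this size 0 calls lie near that share and are no result about these families. Of 17 interferon-induced GTPases 0 passed (edgeR; median -0.21). Gbp6 was at 227 to 725 and 162 to 304 CPM (log2 fold change -0.90 ± 0.29 SE; edgeR adjusted p = 0.0728), Irgm2 at 45.2 to 87.2 and 34.1 to 53.2 (-0.75 ± 0.24; edgeR adjusted p = 0.0741) and Gbp4 at 289.9 to 619 and 219.8 to 396 (-0.70 ± 0.24; edgeR adjusted p = 0.0940). Of 16 Ras-related and septin GTPases of lymphocytes 0 passed (edgeR; median -0.03), and the smallest p-values belonged to Arl6 (edgeR adjusted p = 0.273), Rap1b (0.310) and Rac2 (0.327).

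The genes whose pattern was most like that of the family were sought among the tested genes by correlation with the members' mean log2 CPM over the 10 libraries. These were Gas2 (Pearson r = 0.97), I730030J21Rik (0.96), Mterf1a (0.94), Ccdc58 (0.92) and Gm19705 (0.91). With the group means subtracted the coefficients were 0.97, 0.96, 0.95, 0.93 and 0.91. All of them were lower in naïve mice 4 and 5 than in naïve mice 1 to 3, as Gimap4 was. Gas2 was at 15.6, 8.07, 11.3, 3.07 and 3.61 CPM in naïve mice 1 to 5, and at 4.38, 5.30, 8.83, 6.66 and 15.3 in pre-exposed mice. Ccdc58 ranged from 15.4 to 37.2 CPM over the libraries. The coefficients are the highest of many and carry no test. Among the members themselves, each set against the mean of the other 7, Gimap4 (0.88) and Gimap6 (0.85) had the highest coefficients and Gimap1 the lowest (-0.49).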

How the data were processed

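EM γδ T cells from 5 naïve and 5 pre-exposed mice were profiled by RNA-sequencing, 1 library per mouse, with groups and mouse numbers taken from the sample labels. The authors aligned paired reads to mm10 with Subread and deposited whole-number counts per Entrez gene from featureCounts with the built-in NCBI annotation, which are not normalized. The sources used here do not give tool versions or whether strand was used. For the library kit, the paper gives SMART ultra-low input, and the labels give Illumina TruSeq. Such input needs amplification, and without molecular identifiers counts are not independent molecules.

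Symbols came from RefSeq GRCm38.p6 by Entrez ID and matched 25275 of 27179 genes. Of these genes 13534 passed filterByExpr, and 12655 were tested after 767 genes without a symbol and 112 immunoglobulin genes were left out, as in the paper's methods. Library totals are given in the report. At 95% confidence 0 counts allow up to 3, which covers counting error only. After TMM scaling, counts were tested in edgeR 4.0.16 in R 4.3.3 (quasi-likelihood test, robust, legacy set to FALSE), all 10 libraries in 1 fit without covariates, with Benjamini-Hochberg adjustment at 0.05. Standard errors were derived from log2 fold changes and their F statistics. Exact permutation tests were two-sided and compared group means of log2 CPM (prior count 2) or of shares. Alternatives used limma 3.58.1 (voom, with or without TREAT at 1.5-fold), DESeq2 1.42.0, other scalings and filters, a block for the replicate number, a covariate for label style, subsets of the pre-exposed mice, each library left out in turn, and an offset from a loess fit (span 0.3) on log2 gene length. The edgeR fit, also with legacy dispersion, replicate block or length offset, was tested on simulated counts, as were voom with TREAT or eBayes and DESeq2. The other alternatives, the shares, the permutation tests, Dixon's comparison and the correlations were not.

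The members, the gene lists and the tests were chosen with earlier results of these data known. Named are all members, up to 3 genes with the smallest p per list, tested neighbours within 500000 bases and the 5 genes most like the family's mean. The comparison of shares and its alternatives, and the fold changes of Malsu1, Bcl2a1b and Bcl2a1d without pre-exposed mouse 5, were added after the levels had been seen. Phosphate-binding loops and 75-base stretches were read from GENCODE M21 transcripts, whose models can be longer than the exons counted by the authors. Promoters came from RefSeq. 1 surface gene of the lists is not reported here.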

Additional observations from a re-analysis of the deposited data

Results flagged for a closer look

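For values given by library, the highest or lowest of 5 mice was compared with the others by Dixon's gap over range (critical value 0.71), on the log2 scale for members' CPM. Of 140 groups of 5 examined, 9 values stood apart, and chance flags about 1 in 20 groups. Gimap5 in pre-exposed mouse 1 was the lowest of its group, at 165 CPM. The share of Gimap3 in the family was lowest in pre-exposed mouse 5, at 8.15%, and that of Gimap9 highest in the same mouse, at 8.51%. Also highest in pre-exposed mouse 5 were Dapl1 (14.9 CPM), Gm19705 (74.8 CPM) and the sum over IL-7 receptor signalling and Bcl2 family genes (7662 CPM). Pre-exposed mouse 5 thus gave 5 of the 9 values, and it is also the library whose 10 leading genes held 24.7% of all counts. Among naïve mice, Arl6 was highest in mouse 4 (9.81 CPM), Sspo was highest in mouse 3 (5.25 CPM) and Malsu1 was lowest in mouse 5 (16.2 CPM). The part of depth or composition in these values was not tested.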

How the results depend on the processing

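No Gimap gene was called in 25 of 26 alternatives, and 1 of 8 (Gimap8, lower, log2 fold change -1.05) was called with pre-exposed mice 2 to 4 alone. Over all genes, the 796 calls became 2 with voom and TREAT, 287 with quality weights added, 96 with voom and eBayes, 1350 with DESeq2, 358 with the legacy dispersion, 218 with the length offset, 40 with label style as a covariate, 27 with pre-exposed mice 1 and 5 and 3904 with mice 2 to 4. Without 1 library they ranged from 81 (without pre-exposed mouse 2) to 1996 (without pre-exposed mouse 5). The cause was not tested. With the replicate number as a block 54 genes were called, and 24 with the length offset added, with 0 Gimap genes in both. Mice with the same number did not deviate together (correlations of -0.26 to 0.05, and 0 of 5 best with their own number), so the numbers do not pair the samples.

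The signs of Gimap1, Gimap4, Gimap5, Gimap8 and Gimap9 turned under some alternatives. With the length offset the log2 fold changes were -0.26 for Gimap1, -0.022 for Gimap4 and 0.017 for Gimap8. With block and length offset they were -0.25 for Gimap1 and -0.091 for Gimap9. With label style as a covariate they were -0.23 for Gimap1 and 0.39 for Gimap8. With pre-exposed mice 1 and 5 they were -0.18 for Gimap1 and 0.44 for Gimap8. Gimap5 turned to 0.020 with upper-quartile scaling, 0.096 with quality weights, 0.059 with mice 2 to 4 and 0.026 with all genes kept. Without 1 library each, Gimap1 ranged from -0.012 to 0.16, Gimap4 from -0.013 to 0.32, Gimap5 from -0.073 to 0.081, Gimap8 from -0.69 (without pre-exposed mouse 5) to -0.047 and Gimap9 from -0.0078 to 0.52. Gimap3, Gimap6 and Gimap7 kept their direction in all 26 alternatives, and the lowest adjusted p of Gimap7 was 0.106.

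The changes in the shares of Gimap6 (-4.83 to -3.23 percentage points) and Gimap7 (1.38 to 2.39) kept direction and an exact permutation p under 0.05 in 13 of 13 alternatives. All but the length offset only left out libraries from groups that did not overlap. Their direction, and largely their p-values, were therefore fixed in advance and are no further support. With the length offset, which alone recomputed the shares, the Gimap7 groups overlapped (exact permutation test, p = 0.0159). Other shares turned. The share of Gimap8 differed by -0.678 with mice 2 to 4 (exact permutation p = 0.0357) and that of Gimap9 by 1.40 without pre-exposed mouse 1 (exact permutation p = 0.0397), both then under 0.05. That of Gimap1 differed by 0.630 with mice 2 to 4, that of Gimap5 by 0.133 with mice 2 to 4 and 0.0401 with the length offset, and that of Gimap8 by 0.403 with mice 1 and 5 and 0.0471 with the length offset. Without 1 library, the share of Gimap1 differed by -0.84 to 0.961 and that of Gimap5 by -0.325 to 0.0915 percentage points.

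With 5 mice a group and standard errors up to 0.37, modest changes of single members were not excluded. The counts behind a value ran from 886 (Gimap7 in naïve mouse 4) to 61479 (Gimap4 in naïve mouse 2), and the deeper libraries carry less counting error than the shallow ones.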
